A study of Mus musculus with 36 samples.

Results

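Complex I, the NADH:ubiquinone oxidoreductase of the inner mitochondrial membrane, was followed through the liver transcripts of its nuclear-encoded subunits. The members were the rows of the expression table whose gene symbol is Nduf followed by a, b, c, s or v and a number, plus Ndufab1, which gave 37 of the 36066 genes in the table. Whole livers of 36 fasted mice aged 4 months were sequenced after poly(A) selection, with 3 mice in each of 12 groups. The values are TPM, a length-corrected share of all transcripts that sums to 1000000 in every mouse.

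The groups are named by sex (F or M) and treatment. GL00 mice were Gulo-/-, drank 0.4% ascorbate until the age of 3 months, and had none for the 4 weeks that followed. GL01, GL05 and GL40 mice were Gulo-/- and drank 0.01%, 0.05% and 0.4% ascorbate from weaning onwards. GLR40 mice were Gulo-/-, lost the 0.4% supply for 1 month from the age of 2 months, and then had it back until sampling. WT00 mice were wild type (Gulo+/+) and received no ascorbate. Gulo is the last enzyme of ascorbate synthesis, and mice without it depend on the drinking water.

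Complex I takes electrons from NADH, passes them along a chain of iron-sulfur clusters to ubiquinone, and couples this to proton pumping across the membrane. Its catalytic core consists of nuclear-encoded proteins in the matrix arm, made of an N module that oxidises NADH and a Q module that reduces ubiquinone, and of the ND proteins of the membrane arm, which the mitochondrial genome encodes. Around this core sit accessory subunits, all nuclear-encoded, that build and stabilise the enzyme. Liver cells carry many mitochondria and use the complex to reoxidise the NADH made in fatty acid, amino acid and alcohol breakdown.

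Several facts on the libraries touch the results. Gulo was listed at 16.4 to 52.2 TPM in the 30 Gulo-/- mice, against 144 to 269 TPM in the 6 wild type mice. One MGLR40 mouse (2831) is called female in its title and male in its sex label. Its Ddx3y, a Y-linked gene, stood at 25.4 TPM, against 15.1 to 29.1 TPM in the other males and 0 to 0.875 TPM in females, and it was kept as a male. One FGL40 mouse (2695) carried 10514 TPM in 9 pancreatic acinar markers, against at most 14.8 TPM in FGL00 livers. The major urinary protein (Mup) genes took 1.22% of all TPM in MGL00 livers and 10.1% in MGL40 livers, and 0.0607% in FGL00 livers and 3.27% in FGL40 livers. Because TPM sum to a fixed total, such genes move every other value, and counts are therefore given also after median-ratio scaling between mice and after rescaling without the 22 Mup genes. A fold change is on the scale log2(TPM + 1), and a gene was called when limma gave a two-sided Benjamini-Hochberg adjusted p under 0.05 over all genes tested. Fewer cells of a type and less RNA per cell cannot be told apart in whole liver.

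All 37 members were above 0 TPM in all 36 mice and passed the filter on low values. Ndufa4 was the most abundant with a mean of 608 ± 55.7 TPM (SD, n = 36), followed by Ndufb9 with 356 ± 33.3 TPM and Ndufa6 with 301 ± 22.3 TPM. Ndufa4 was first purified with complex I and is now counted as a subunit of cytochrome c oxidase, while Ndufb9 and Ndufa6 are accessory subunits that hold the acyl carrier protein. The lowest means were those of Ndufb3 (64.0 ± 7.97 TPM), Ndufs1 (66.4 ± 5.69 TPM) and Ndufb1 (67.0 ± 6.07 TPM), of which Ndufs1 is the core subunit with most of the iron-sulfur clusters of the N module.

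The highest member mean was 9.49 times the lowest, and the median of the 37 means was 127 TPM. Each member varied little between mice, with a coefficient of variation over all mice of 6.19% to 13.4%. Further core subunits had means of 136 TPM (Ndufv1), 114 TPM (Ndufv2), 134 TPM (Ndufs3), 126 TPM (Ndufs7) and 102 TPM (Ndufs8). In the plot of levels by sex, the points of a gene lie close together beside the distance between the most and the least abundant genes.

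**Figure D1:**
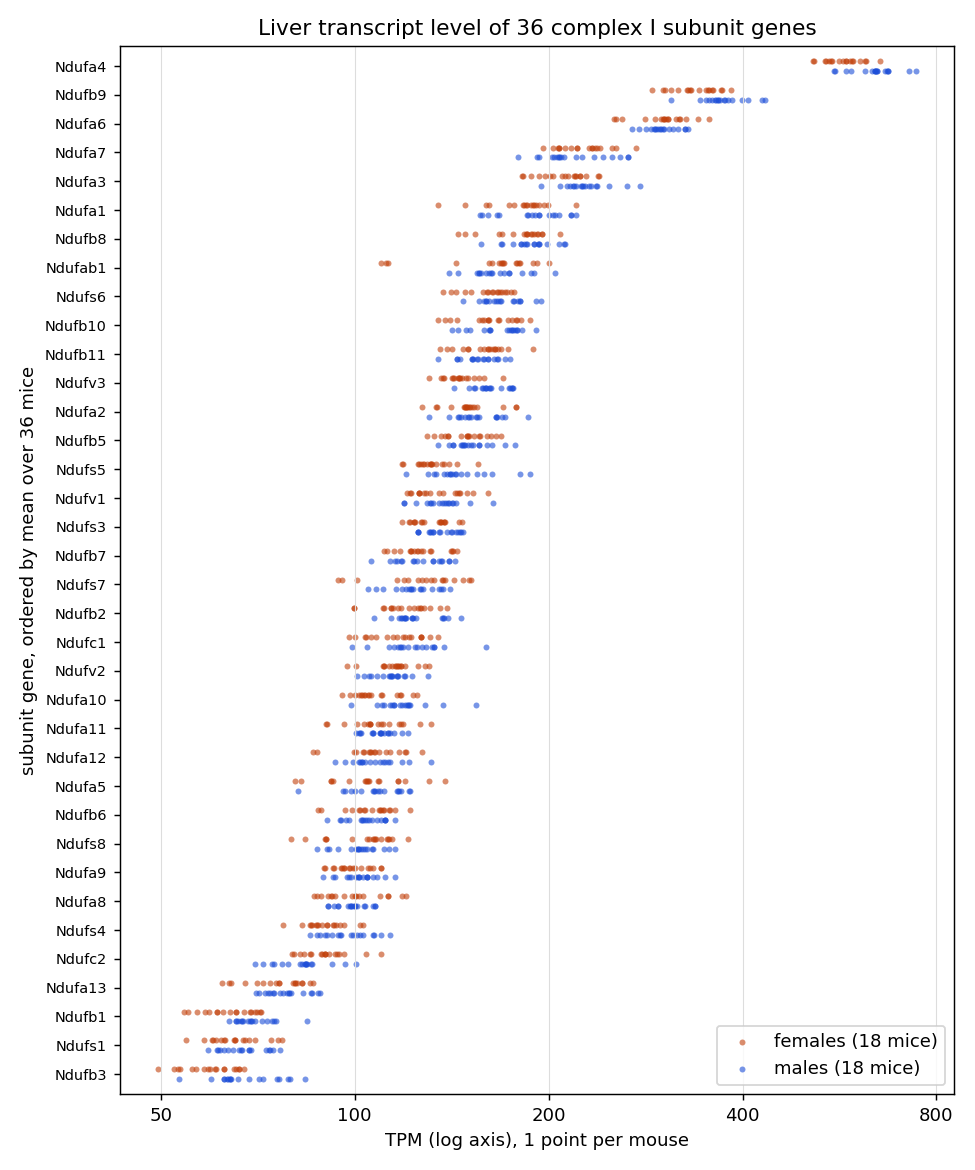
TPM of 36 members on a log axis, with 1 point for each of 18 females (orange, above) and 18 males (blue, below), ordered by the mean over 36 mice. Ndufa4 stands at the top with a mean of 608 TPM, and the other means lie between 64.0 TPM (Ndufb3) and 356 TPM (Ndufb9).

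The sum over the 37 members showed how much of the liver transcriptome they make up. It was 4947 ± 95.3 TPM in FGL00, 5968 ± 334 TPM in FGL01, 5623 ± 195 TPM in FGL05, 5450.3 ± 20.3 TPM in FGL40, 5717 ± 220.0 TPM in FGLR40 and 5600.1 ± 112 TPM in FWT00 (SD, n = 3 each). In males it was 5664 ± 93.5 TPM in MGL00, 6335 ± 352 TPM in MGL01, 5513 ± 422 TPM in MGL05, 5644 ± 118 TPM in MGL40, 5913 ± 151 TPM in MGLR40 and 5696 ± 172 TPM in MWT00. On TPM as deposited, the highest FGL00 mouse (5036 TPM) was below the lowest FGL40 mouse (5434 TPM), whereas MGL00 and MGL40 mice overlapped. After median-ratio scaling the mean sums were 5036 in FGL00, 5297 in FGL01 and 5342 in FGL40, and 5592 in MGL00, 6569 in MGL01 and 6121 in MGL40. Without the Mup genes they were 4950 in FGL00 and 5634 in FGL40, and 5733 in MGL00 and 6282 in MGL40. As in females, the MGL00 mean was below the MGL40 mean under both of these scalings. Overlap of single mice was read on TPM as deposited only.

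The comparison of FGL00 with FGL40 addressed what 4 weeks without ascorbate did to these transcripts in females. Of the 37 members, 10 fell and none rose in FGL00, against 13.7% of all 18050 genes tested that fell and 9.56% that rose. The median member log2 change was -0.15, against -0.02 over all genes. With median-ratio scaling 5 members fell and 1 (Ndufa7) rose, and without the Mup genes 14 fell and none rose. Of all genes, 12.8% fell and 12.3% rose with median-ratio scaling, and 15.9% fell and 8.1% rose without the Mup genes. The 5 that fell under all 3 scalings were Ndufab1, Ndufs7, Ndufs8, Ndufb8 and Ndufa13.

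Ndufab1, the mitochondrial acyl carrier protein, is a part of complex I and also carries growing chains in mitochondrial fatty acid synthesis, which supplies lipoic acid. It stood at 112, 112 and 109.8 TPM in FGL00 mice, against 169, 179.7 and 170.4 TPM in FGL40 mice. All 3 FGL00 mice lay below all FGL40 mice, and no mouse of the other 11 groups was as low. The log2 change was -0.63 ± 0.10 (SE, adjusted p = 3.48e-04, limma), and it stayed between -0.68 and -0.58 and past the threshold in all 13 alternatives of scaling, filter, fit and left-out mouse. As a share of the members' summed TPM, which does not depend on the scaling, Ndufab1 made up 2.25% ± 0.0467 in FGL00 and 3.18% ± 0.112 in FGL40 (SD, n = 3 each).

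Ndufs7 is a core subunit of the Q module and carries the last iron-sulfur cluster before ubiquinone. It was 101, 94.2 and 95.5 TPM in FGL00 mice, against 126, 137 and 127 TPM in FGL40 mice, without overlap. The log2 change was -0.42 ± 0.10 (adjusted p = 0.00545), and it was called in all 13 alternatives. Ndufs8, the core subunit that hands electrons on to Ndufs7, was 79.7, 89.9 and 90.1 TPM in FGL00 mice, against 114, 108 and 107 TPM in FGL40 mice, again without overlap. Its log2 change was -0.34 ± 0.10 (adjusted p = 0.0275), called in 9 of 13 alternatives.

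Ndufs3, another core subunit of the Q module, had 124 ± 2.58 TPM in FGL00 and 126 ± 2.07 TPM in FGL40 and was not called (log2 change -0.02 ± 0.08, adjusted p = 0.873).

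The N module core subunits were not called in this comparison. Ndufv1, which binds NADH and flavin, had 123 ± 2.23 TPM in FGL00 and 128 ± 2.52 TPM in FGL40, with a log2 change of -0.05 ± 0.07. Ndufv2 had 103 ± 6.93 TPM in FGL00 and 116 ± 2.23 TPM in FGL40, with a log2 change of -0.17 ± 0.07 (adjusted p = 0.0973). Ndufs1 had 57.7 ± 2.74 TPM in FGL00 and 62.8 ± 2.47 TPM in FGL40, with a log2 change of -0.12 ± 0.07 (adjusted p = 0.242).

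Among the accessory subunits of the membrane arm, Ndufb8 and Ndufa13 fell under all 3 scalings. Ndufb8, whose protein is lost when the complex is not assembled, was 145, 154 and 149 TPM in FGL00 mice, against 188, 176 and 185 TPM in FGL40 mice. The groups did not overlap, and the log2 change of -0.29 ± 0.07 (adjusted p = 0.00823) was called in all 13 alternatives. Ndufa13, also known as GRIM-19 for its role in cell death, was 63.8, 64.2 and 62.1 TPM in FGL00 mice, against 76.3, 73.9 and 82.9 TPM in FGL40 mice, without overlap. Its log2 change was -0.29 ± 0.09 (adjusted p = 0.0279), called in 8 of 13 alternatives.

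Further members called in FGL00 over FGL40 were Ndufa11, Ndufb10, Ndufa12 and Ndufb6, with log2 changes of -0.24, -0.24, -0.23 and -0.20 and adjusted p between 0.0208 and 0.0396. Ndufa11, Ndufb10 and Ndufb6 belong to the membrane arm and Ndufa12 to the N module, and none of these 4 was called with median-ratio scaling. The 27 members not called had log2 changes between -0.28 and 0.15. Leaving out each mouse in turn gave 3 members that fell without FGL00 mouse 2788, 6 without 2790 and 5 without 2791, and 4 without FGL40 mouse 2694, 6 without 2695 (the mouse with pancreatic markers) and 4 without 2696. In these fits 1713 to 2143 of all genes fell, against 2469 with all mice.

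Markers of other cells moved with this comparison. The 6 erythroid markers, none of them at 0, summed to 3188 to 5811 TPM in FGL00 livers, against 1058 to 1309 TPM in FGL40 livers. The 8 neutrophil markers, none at 0, summed to 44.2 to 85.8 TPM in FGL00 livers, against 10.9 to 12.8 TPM in FGL40 livers. Neither of these sums overlapped between the groups. The 8 hepatocyte markers summed to 91392 to 105204 TPM in FGL00 livers, against 92238 to 95453 TPM in FGL40 livers, and overlapped. Of the other lists, the 9 pancreatic acinar markers did not overlap (11.7 to 14.8 TPM in FGL00, against 28.5 to 10514 TPM in FGL40, with Cpa1, Prss2, Pnlip, Ctrb1 and Cel at 0 in FGL00), and the remaining 6 overlapped. The pancreatic sums, at most 46.5 TPM outside FGL40, also did not overlap in FGL00 over FWT00, FGL01 over FGL40, FGLR40 over FGL00, MGL00 over MGL40, MGL01 over MGL40 and MGLR40 over MGL00. The same held for FGLR40 over FGL40, MGL05 over MGL40 and MGLR40 over MGL40. The part of these cells in the lower complex I transcripts was not tested.

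The start regions of 6 members that the results turn on are shown, to give the sequence around their transcription starts. They are RefSeq promoters on GRCm38.p6, from 120 bases before the start to 50 bases after it, of the 5 members that fell in FGL00 under all 3 scalings and of Ndufa1, which fell in MGL00. The windows are chr7:122101799-122101968 on the minus strand (Ndufab1), chr10:80249329-80249498 on the plus strand (Ndufs7), chr19:3912725-3912894 on the minus strand (Ndufs8), chr19:44555393-44555562 on the minus strand (Ndufb8), chr8:69901971-69902140 on the minus strand (Ndufa13) and chrX:37191189-37191358 on the minus strand (Ndufa1). Capitals mark matches to the motifs searched.
Ndufab1: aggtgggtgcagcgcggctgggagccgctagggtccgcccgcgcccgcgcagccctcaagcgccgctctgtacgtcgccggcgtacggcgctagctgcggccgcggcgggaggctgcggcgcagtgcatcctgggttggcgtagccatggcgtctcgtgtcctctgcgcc
Ndufs7: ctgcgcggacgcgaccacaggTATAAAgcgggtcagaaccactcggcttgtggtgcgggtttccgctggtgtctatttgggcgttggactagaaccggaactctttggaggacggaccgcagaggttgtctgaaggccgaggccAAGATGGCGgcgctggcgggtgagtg
Ndufs8: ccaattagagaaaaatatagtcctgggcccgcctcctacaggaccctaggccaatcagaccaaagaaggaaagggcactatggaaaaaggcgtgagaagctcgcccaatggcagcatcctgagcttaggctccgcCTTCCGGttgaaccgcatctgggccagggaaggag
Ndufb8: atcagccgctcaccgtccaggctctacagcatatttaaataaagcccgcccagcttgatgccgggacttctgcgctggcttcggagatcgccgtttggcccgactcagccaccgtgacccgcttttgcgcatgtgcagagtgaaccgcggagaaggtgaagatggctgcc
Ndufa13: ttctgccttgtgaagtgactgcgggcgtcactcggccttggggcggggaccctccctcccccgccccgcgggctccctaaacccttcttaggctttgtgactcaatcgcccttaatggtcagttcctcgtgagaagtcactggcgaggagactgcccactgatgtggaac
Ndufa1: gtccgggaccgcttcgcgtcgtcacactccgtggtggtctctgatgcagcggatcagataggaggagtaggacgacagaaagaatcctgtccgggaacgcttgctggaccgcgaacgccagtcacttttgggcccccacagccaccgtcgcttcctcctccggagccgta

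RefSeq promoters were matched for 33 of the 37 members, and 5 motifs were searched on both strands of 300 bases, 250 before and 50 after the start. Members were counted by gene, with a match in any of its promoters, whereas the shares of all were counted by promoter. Of the members, 2 (Ndufa5 and Ndufa7) had more than 1 promoter. The NRF-1 motif GCGCANGCG was in 7 of the 33 (21.2%), namely Ndufa5, Ndufa6, Ndufa8, Ndufa11, Ndufb10, Ndufs5 and Ndufs6, and in 6.25% of all 32851 promoters. The YY1 motif AAGATGGCG was in 5 members (15.2%), namely Ndufa9, Ndufc1, Ndufs4, Ndufs6 and Ndufs7, and in 1.40% of all promoters, and in all 5 members it began between 23 and 36 bases after the start on the coding strand. The ETS motif CCGGAAG was in 4 members (12.1%, against 8.86% of all), the TATA motif TATAAA in 4 (12.1%, against 13.6%) and the ERR motif TCAAGGTCA in none (0.423% of all). Of the 6 shown, Ndufs7 held a TATA and a YY1 match and Ndufs8 an ETS match on the other strand, and the remaining 4 held none in these windows.

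FGL00 was also set against wild type females. Over FWT00, 14 members fell and none rose in FGL00, against 17.4% of all genes that fell and 7.73% that rose. The largest log2 changes were those of Ndufab1 (-0.68), Ndufs7 (-0.39), Ndufa13 (-0.36), Ndufb8 (-0.34), Ndufs8 (-0.33), Ndufb10 (-0.33), Ndufb3 (-0.33), Ndufa1 (-0.32), Ndufb1 (-0.30) and Ndufs6 (-0.28). Of the 10 distal membrane arm members, 7 fell. With median-ratio scaling 4 fell, namely Ndufa13, Ndufab1, Ndufb8 and Ndufs7, and without the Mup genes 21 fell, against 12.4% of all genes that fell with the first of these scalings and 19.7% with the second. The count was 7 without FGL00 mouse 2788, 8 without FWT00 mouse 2641 and 9 without FWT00 mouse 2642. In these fits 2191, 2484 and 2198 of all genes fell, against 3139 with all mice. Ndufab1 was 112, 112 and 109.8 TPM in FGL00 mice, against 168, 179 and 192 TPM in FWT00 mice, without overlap, and the FGL00 mice are those of the comparison with FGL40.

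In FGL00 livers, set against FWT00 livers, the sums of the 8 hepatocyte markers (91392 to 105204 TPM in FGL00, against 78758 to 90551 TPM in FWT00), the 8 neutrophil markers (44.2 to 85.8 TPM in FGL00, against 6.68 to 7.71 TPM in FWT00) and the 6 erythroid markers (3188 to 5811 TPM in FGL00, against 673 to 1519 TPM in FWT00) were higher, without overlap between the groups, and their part in the complex I transcripts was not tested.

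FGL01 mice had the lowest supply that was never interrupted. Over FGL01, a comparison added after values had been seen, all 37 members had a log2 change below 0 in FGL00. Of these 16 were called lower and none higher, against 3.59% of all genes that fell and 0.709% that rose. The median change was -0.26, against -0.12 over all genes. Median-ratio scaling moved the median of all genes by 0.115, to 0.00, and left 1 member called (Ndufab1, against 0.321% of all genes that fell), 30 below 0 and 7 above. Ndufab1 was 112, 112 and 109.8 TPM in FGL00 mice, against 144, 170.0 and 178 TPM in FGL01 mice, without overlap.

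The largest log2 changes of FGL00 over FGL01 were those of Ndufab1 (-0.55), Ndufa5 (-0.50), Ndufs7 (-0.44), Ndufa11 (-0.43), Ndufa12 (-0.42), Ndufb8 (-0.39), Ndufb6 (-0.36), Ndufb11 (-0.34), Ndufa8 (-0.32) and Ndufb10 (-0.31). Ndufa5 is an accessory subunit of the Q module, and Ndufb6, Ndufb8, Ndufb10 and Ndufb11 belong to the distal membrane arm, of which 7 of 10 members fell on TPM as deposited. The count was 4 without FGL00 mouse 2788, 7 without 2790 and 6 without 2791. It was 28 without FGL01 mouse 2722, whose summed member TPM of 5592 was the lowest of its group, and 5 without FGL01 mouse 2723 or 2724. Of all genes, 94, 406 and 275 fell without FGL00 mice 2788, 2790 and 2791, against 648 with all mice. The number was 2139 without FGL01 mouse 2722, and 99 and 168 without 2723 and 2724.

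In FGL00 livers, set against FGL01 livers, the sums of the 8 neutrophil markers (44.2 to 85.8 TPM in FGL00, against 10.9 to 43.8 TPM in FGL01) and the 6 erythroid markers (3188 to 5811 TPM in FGL00, against 902 to 1778 TPM in FGL01) were higher, and those of the 6 B and plasma cell markers (8.67 to 11.2 TPM in FGL00, against 13.5 to 46.7 TPM in FGL01) and the 6 endothelial markers (75.3 to 166 TPM in FGL00, against 167 to 199 TPM in FGL01) were lower, without overlap between the groups, and their part in the complex I transcripts was not tested.

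**Figure D2:**
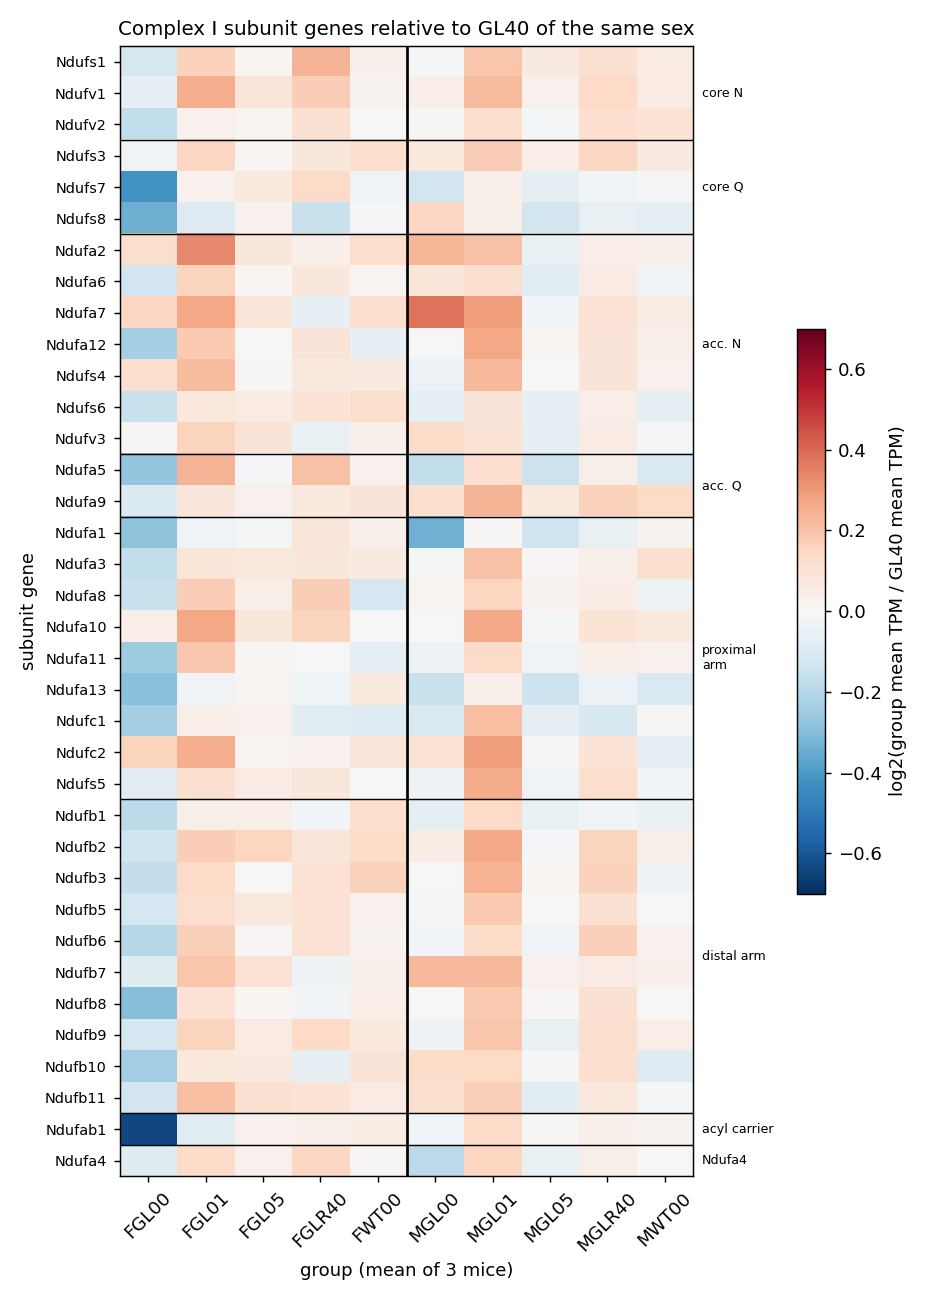
Log2 ratio of the mean TPM of each group to the mean of GL40 of the same sex (colour), for 36 members in rows by position in the complex, with Ndufa4 apart, and 5 groups per sex in columns, females left. On TPM as deposited, 31 of all 37 members were below 0 in FGL00 and 33 above 0 in FGL01 by the fitted changes, whereas with median-ratio scaling 30 were below 0 in FGL00 and 18 above 0 in FGL01.

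Lower constant supplies were compared with GL40. In FGL01, 7 members rose and none fell over FGL40, against 14.3% of all genes that rose and 5.58% that fell. Ndufa2, a thioredoxin-fold subunit of the N module, was 178, 170.1 and 178 TPM in FGL01 mice, against 134, 134 and 148 TPM in FGL40 mice, without overlap (log2 change 0.34 ± 0.07, adjusted p = 0.00422). The others called were Ndufa7 (0.27), Ndufa10 (0.27), Ndufv1 (0.25), Ndufc2 (0.24), Ndufs4 (0.22) and Ndufb11 (0.21). None of the 7 was called with median-ratio scaling, where the median member change was 0.00, and 2 (Ndufa2 and Ndufa10) were called without the Mup genes, where 11.4% of all genes rose. The count was 3 without FGL01 mouse 2723, 4 without 2724, 1 without FGL40 mouse 2694 and 3 without 2695. In these fits 1778, 2481, 1633 and 1872 of all genes rose, against 2584 with all mice.

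In FGL01 livers, set against FGL40 livers, the sums of the 8 Kupffer cell markers (414 to 563 TPM in FGL01, against 318 to 358 TPM in FGL40), the 6 B and plasma cell markers (13.5 to 46.7 TPM in FGL01, against 6.81 to 8.95 TPM in FGL40), the 6 T and NK cell markers (6.86 to 9.80 TPM in FGL01, against 4.52 to 5.17 TPM in FGL40), the 6 endothelial markers (167 to 199 TPM in FGL01, against 149 to 157 TPM in FGL40) and the 7 stellate cell and fibroblast markers (221 to 257 TPM in FGL01, against 179.8 to 191 TPM in FGL40) were higher, without overlap between the groups, and their part in the complex I transcripts was not tested.

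In MGL01 over MGL40, 2 members rose and none fell, against 1.96% of all genes that rose and 1.46% that fell. Ndufa7, an accessory subunit of the N module, had 246 ± 11.6 TPM in MGL01 and 200.3 ± 7.32 TPM in MGL40 (log2 change 0.29 ± 0.07, adjusted p = 0.0397). Ndufc2, a small subunit of the proximal membrane arm, had 96.4 ± 4.25 TPM in MGL01 and 78.7 ± 3.72 TPM in MGL40 (0.29 ± 0.07, adjusted p = 0.0432). Neither was called with median-ratio scaling or without the Mup genes, and the count was 0 without MGL01 mouse 2711 or 2712 or without any 1 of the MGL40 mice 2690, 2691 and 2719. With these mice left out in turn, 56 to 268 of all genes rose, against 347 with all mice.

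In MGL01 livers, set against MGL40 livers, the sums of the 6 B and plasma cell markers (7.12 to 9.88 TPM in MGL01, against 3.88 to 6.33 TPM in MGL40) were higher, without overlap between the groups, and their part in the complex I transcripts was not tested.

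At 0.05% ascorbate no member was called by limma in either sex. Of all genes, 0% were called in FGL05 over FGL40 and 0.0566% in MGL05 over MGL40, and 0 members in females and 0 in males had an unadjusted p under 0.05. The smallest p values in females belonged to Ndufb2, whose log2 change was 0.15 (127 TPM in FGL05 mice and 114 TPM in FGL40 mice), Ndufb11 (0.11) and Ndufb7 (0.10). In males they belonged to Ndufs8, whose log2 change was -0.13 (93.9 TPM in MGL05 mice and 102 TPM in MGL40 mice), Ndufa13 (-0.14) and Ndufa5 (-0.16).

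The wild type over GL40 gave no call either. In FWT00 over FGL40, 0 members were called by limma, against 0.183% of all genes, with 1 member at an unadjusted p under 0.05. The smallest p values belonged to Ndufb3, whose log2 change was 0.16 (65.0 TPM in FWT00 mice and 58.0 TPM in FGL40 mice), Ndufs6 (0.12) and Ndufa2 (0.12). In MWT00 over MGL40, 0 members were called, against 0.453% of all genes, with 0 at an unadjusted p under 0.05, and small p values belonged to Ndufa9, whose log2 change was 0.14 (103 TPM in MWT00 mice and 93.5 TPM in MGL40 mice), and Ndufa13 (-0.10). These counts of 0 held in each alternative run, the other 2 scalings included.

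The GLR40 groups were used to ask where the transcripts stood after 0.4% ascorbate had been given back. In FGLR40, 20 members rose and none fell over FGL00, against 16.6% of all genes that rose and 5.3% that fell. The FGL00 mice are those of the comparisons above. With median-ratio scaling 2 rose (Ndufab1 and Ndufs7) and 3 fell (Ndufa2, Ndufa7 and Ndufv3), and without the Mup genes 22 rose and none fell. Of all genes, 9.05% rose and 9.11% fell with median-ratio scaling, and 18.6% rose and 4.95% fell without the Mup genes. The count was 8 without FGL00 mouse 2788 and 10 without FGLR40 mouse 2717 or 2718. In these fits 1974, 2022 and 2499 of all genes rose, against 3005 with all mice.

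Ndufab1 was 163, 189 and 180.4 TPM in FGLR40 mice, against 112, 112 and 109.8 TPM in FGL00 mice (log2 change 0.67 ± 0.10, adjusted p = 4.02e-04, called in all 13 alternatives). Ndufs7 was 137, 147 and 142 TPM in FGLR40 mice, against 101, 94.2 and 95.5 TPM in FGL00 mice (0.55 ± 0.10, adjusted p = 0.00132, called in all 13). Both genes were higher in each FGLR40 mouse than in any FGL00 mouse. The next largest log2 changes called were Ndufa5 (0.46), Ndufa1 (0.37), Ndufs1 (0.35), Ndufa12 (0.33), Ndufa8 (0.32), Ndufb6 (0.29), Ndufv2 (0.28) and Ndufb8 (0.27). All 3 core subunits of the N module rose on TPM as deposited and none of them with median-ratio scaling, with 74.0 ± 4.62 TPM in FGLR40 and 57.7 ± 2.74 TPM in FGL00 for Ndufs1.

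Ndufa7 was lower in FGLR40. It was 196, 212 and 203 TPM in FGLR40 mice, against 233, 238 and 233 TPM in FGL00 mice, without overlap. Its log2 change was -0.20 ± 0.08 on TPM as deposited (adjusted p = 0.0641) and -0.36 with median-ratio scaling (adjusted p = 0.00283). Its share of the members' summed TPM was 3.56% ± 0.0865 in FGLR40 and 4.74% ± 0.0581 in FGL00. Over FGL40, 0 members were called in FGLR40 by limma, against 2.27% of all genes, with 4 at an unadjusted p under 0.05. The smallest p values there belonged to Ndufs1 (log2 change 0.23 ± 0.07, adjusted p = 0.0861), Ndufa10 (0.16) and Ndufv1 (0.17).

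In FGLR40 livers, set against FGL00 livers, the sums of the 8 neutrophil markers (at most 10.3 TPM in FGLR40, against 44.2 to 85.8 TPM in FGL00) and the 6 erythroid markers (788 to 916 TPM in FGLR40, against 3188 to 5811 TPM in FGL00) were lower, without overlap between the groups, and their part in the complex I transcripts was not tested.

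**Figure D3:**
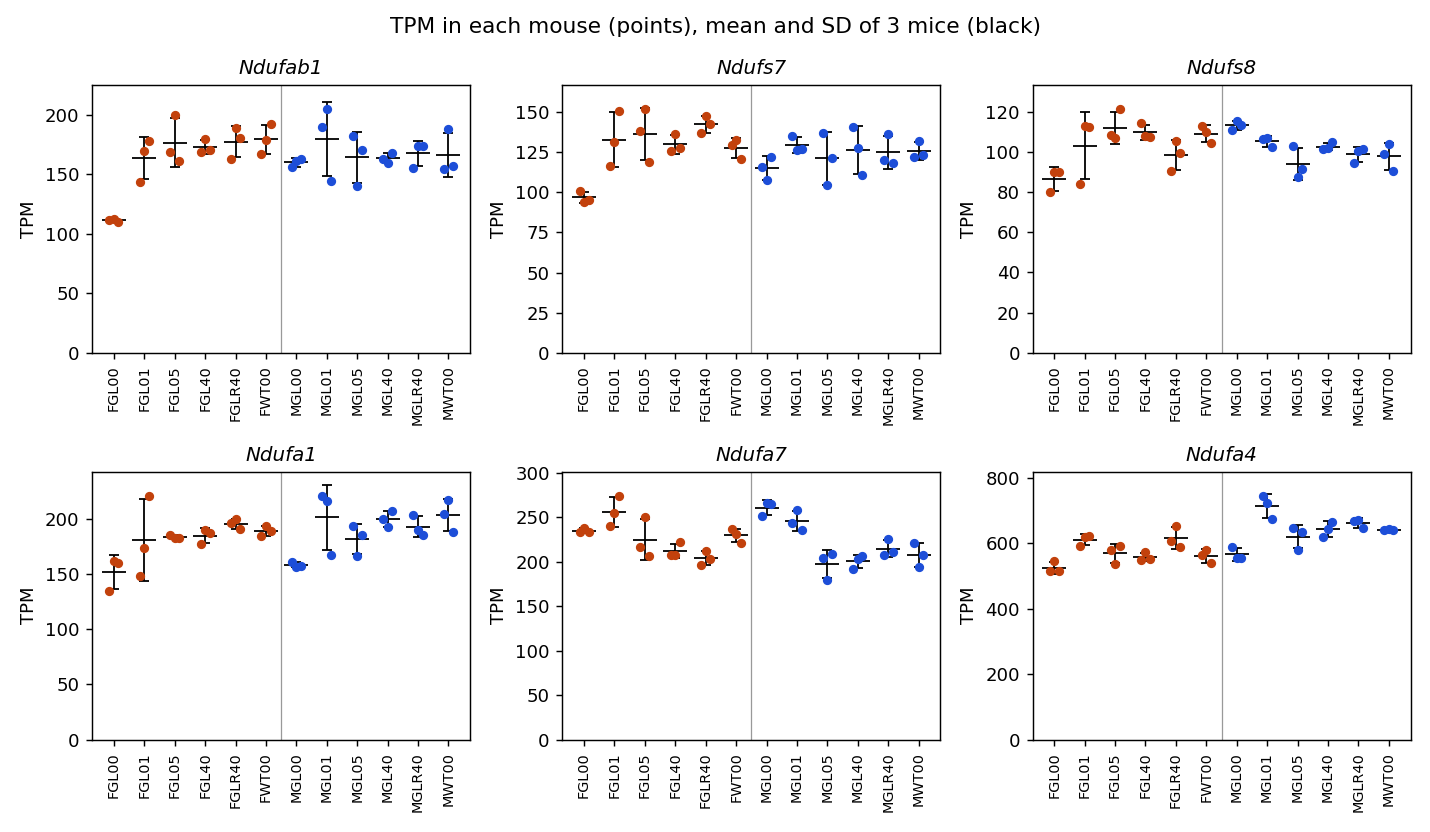
TPM of 6 genes in each mouse (points, females orange and males blue) with the mean and SD of 3 mice (black), for the 6 treatments of each sex. Ndufab1 and Ndufs7 are at 109.8 to 112 TPM and 94.2 to 101 TPM in FGL00, Ndufa1 is at 157 to 161 TPM in MGL00, and Ndufa7 is at 251 to 265 TPM in MGL00.

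Males without ascorbate gave fewer calls. In MGL00 over MGL40, 2 members rose and 1 fell, against 9.85% of all genes that rose and 2.45% that fell, with a median member change of 0.00, against 0.07 over all genes. With median-ratio scaling 5 fell and none rose (Ndufa1, Ndufa4, Ndufa5, Ndufa11 and Ndufa13), and without the Mup genes 4 fell and none rose. The shares of all genes were 5.24% that fell and 3.97% that rose with median-ratio scaling, and 4.62% that fell and 4.16% that rose without the Mup genes. Under both of these scalings 33 of 37 members were below 0, against 19 on TPM as deposited. The count was 1 without any 1 of the MGL00 mice 2783, 2784 and 2787 or without MGL40 mouse 2691 or 2719. No member was called lower in these fits. Of all genes, 961 to 1310 rose and 269 to 358 fell in them, against 1740 and 432 with all mice.

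Ndufa1, an X-linked single-span subunit of the membrane arm that the complex needs for its assembly, fell under all 3 scalings. It was 161, 157 and 158 TPM in MGL00 mice, against 199.9, 193 and 207 TPM in MGL40 mice, without overlap. The log2 change was -0.33 ± 0.09 (adjusted p = 0.0302). It was called in 7 of 13 alternatives, but in none of the 6 that left out 1 mouse. Its share of the members' summed TPM was 2.80% ± 0.0588 in MGL00 and 3.54% ± 0.0624 in MGL40 (SD, n = 3 each). In females it was 135, 161 and 160.0 TPM in FGL00 mice, against 177, 189.5 and 187 TPM in FGL40 mice, also without overlap, and was not called (log2 change -0.28 ± 0.11, adjusted p = 0.0734).

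Ndufa7 was higher in MGL00. It was 251, 265 and 265 TPM in MGL00 mice, against 192, 203 and 206 TPM in MGL40 mice, without overlap (log2 change 0.38 ± 0.07, adjusted p = 0.00440). It was called in 11 of 13 alternatives, but with median-ratio scaling the change was 0.24 (adjusted p = 0.0603) and without the Mup genes 0.24 (adjusted p = 0.0514). Its share of the members' sum was 4.60% ± 0.153 in MGL00 and 3.55% ± 0.156 in MGL40. The remaining member called, Ndufa2, was 165, 166 and 186 TPM in MGL00 mice, against 154, 146 and 140.1 TPM in MGL40 mice (0.23 ± 0.07, adjusted p = 0.0400), without overlap, and was called in 5 of 13 alternatives. Ndufab1 was 156, 161 and 163 TPM in MGL00 mice, against 163, 159.8 and 168 TPM in MGL40 mice, and these groups overlapped.

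In MGL00 livers, set against MGL40 livers, the sums of the 8 hepatocyte markers (91216 to 92814 TPM in MGL00, against 73604 to 82939 TPM in MGL40), the 8 Kupffer cell markers (268 to 314 TPM in MGL00, against 166 to 220.0 TPM in MGL40) and the 6 endothelial markers (124 to 145 TPM in MGL00, against 85.8 to 123 TPM in MGL40) were higher, without overlap between the groups, and their part in the complex I transcripts was not tested. The neutrophil sum was 9.19 to 19.6 TPM in MGL00 livers, against 3.91 to 9.74 TPM in MGL40 livers, and the erythroid sum 823 to 1200.4 TPM in MGL00 livers, against 665 to 1063 TPM in MGL40 livers.

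Against the wild type, 1 member rose and 1 fell in MGL00, against 6.72% of all genes that rose and 4.04% that fell. Ndufa7 had 261 ± 8.30 TPM in MGL00 and 207 ± 13.8 TPM in MWT00 (log2 change 0.33 ± 0.07, adjusted p = 0.00948). Ndufa1 had 158 ± 2.12 TPM in MGL00 and 203 ± 14.3 TPM in MWT00 (-0.36 ± 0.09, adjusted p = 0.0246). Both were called in these directions under all 3 scalings, neither overlapped between the groups, and Ndufa4 was lower as well with each of the other 2 scalings, under which 5.96% (median-ratio) and 6.37% (without Mup genes) of all genes fell. The MGL00 mice are the same as in the comparison with MGL40. The count was 1 without any 1 of the 3 MGL00 mice or without MWT00 mouse 2677 or 2682, and the member still called was Ndufa7. Of all genes, 706 to 918 rose and 359 to 510 fell in these fits, against 1186 and 714 with all mice.

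In MGL00 livers, set against MWT00 livers, the sums of the 8 hepatocyte markers (91216 to 92814 TPM in MGL00, against 79747 to 86624 TPM in MWT00), the 8 Kupffer cell markers (268 to 314 TPM in MGL00, against 176 to 247 TPM in MWT00) and the 8 neutrophil markers (9.19 to 19.6 TPM in MGL00, against 3.38 to 7.03 TPM in MWT00) were higher, without overlap between the groups, and their part in the complex I transcripts was not tested.

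Over MGL01, a comparison added after values had been seen, 2 members fell and none rose in MGL00, against 1.74% of all genes that fell and 4.57% that rose. Ndufa4 was 590.0, 556 and 555 TPM in MGL00 mice, against 745, 724 and 673 TPM in MGL01 mice, without overlap (log2 change -0.33 ± 0.06, adjusted p = 0.00868). Ndufa1 had 158 ± 2.12 TPM in MGL00 and 201 ± 29.4 TPM in MGL01 (-0.33 ± 0.09, adjusted p = 0.0477). With median-ratio scaling 16 members fell and none rose, against 3.99% of all genes that fell and 2.76% that rose. The count on TPM as deposited was 0 without MGL01 mouse 2711, 7 without 2713 and 1 without 2712 or any 1 of the 3 MGL00 mice. Of all genes, 76 fell without 2711, 672 without 2713 and 47 to 193 in the others, against 307 with all mice.

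In MGL00 livers, set against MGL01 livers, the sums of the 8 hepatocyte markers (91216 to 92814 TPM in MGL00, against 75549.8 to 88217 TPM in MGL01), the 8 Kupffer cell markers (268 to 314 TPM in MGL00, against 165 to 205 TPM in MGL01) and the 8 neutrophil markers (9.19 to 19.6 TPM in MGL00, against 2.71 to 6.25 TPM in MGL01) were higher, without overlap between the groups, and their part in the complex I transcripts was not tested.

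In MGLR40 over MGL00, 1 member rose and 1 fell, against 2.98% of all genes that rose and 6.15% that fell. Ndufa4 was 669, 673 and 646 TPM in MGLR40 mice, against 590.0, 556 and 555 TPM in MGL00 mice, without overlap (log2 change 0.22 ± 0.06, adjusted p = 0.0394), and rose under all 3 scalings. It was called in 7 of 13 alternatives, but in none of the 6 that left out 1 mouse. Ndufa7 was 207, 225 and 211 TPM in MGLR40 mice, against 251, 265 and 265 TPM in MGL00 mice, without overlap (-0.28 ± 0.07, adjusted p = 0.0262), and was not called with the other 2 scalings. With each of these, 4 members rose (Ndufa1, Ndufa4, Ndufa5 and Ndufb6) and none fell, against 4.94% of all genes that rose with median-ratio scaling and 3.96% without the Mup genes. The count was 0 without MGL00 mouse 2784 or 2787 or MGLR40 mouse 2828 or 2831 (the mouse whose labels differ on its sex), and 1 without MGL00 mouse 2783 or MGLR40 mouse 2829. Of all genes, 252 to 367 rose and 521 to 606 fell in these fits, against 526 and 1087 with all mice.

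In MGLR40 livers, set against MGL00 livers, the sums of the 8 hepatocyte markers (73555 to 81459 TPM in MGLR40, against 91216 to 92814 TPM in MGL00), the 8 Kupffer cell markers (217 to 260.3 TPM in MGLR40, against 268 to 314 TPM in MGL00), the 8 neutrophil markers (3.26 to 6.38 TPM in MGLR40, against 9.19 to 19.6 TPM in MGL00, with Ly6g and Ltf at 0 in MGLR40) and the 7 stellate cell and fibroblast markers (99.3 to 123 TPM in MGLR40, against 129.6 to 169 TPM in MGL00) were lower, without overlap between the groups, and their part in the complex I transcripts was not tested.

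Over MGL40, 0 members were called in MGLR40 by limma, against 0.00566% of all genes, with 3 at an unadjusted p under 0.05. The smallest p values belonged to Ndufb6, whose log2 change was 0.17 (113 TPM in MGLR40 mice and 100.5 TPM in MGL40 mice), Ndufa9 (0.16) and Ndufs3 (0.14). Without MGLR40 mouse 2831 the count was 0 as well.

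**Figure D4:**
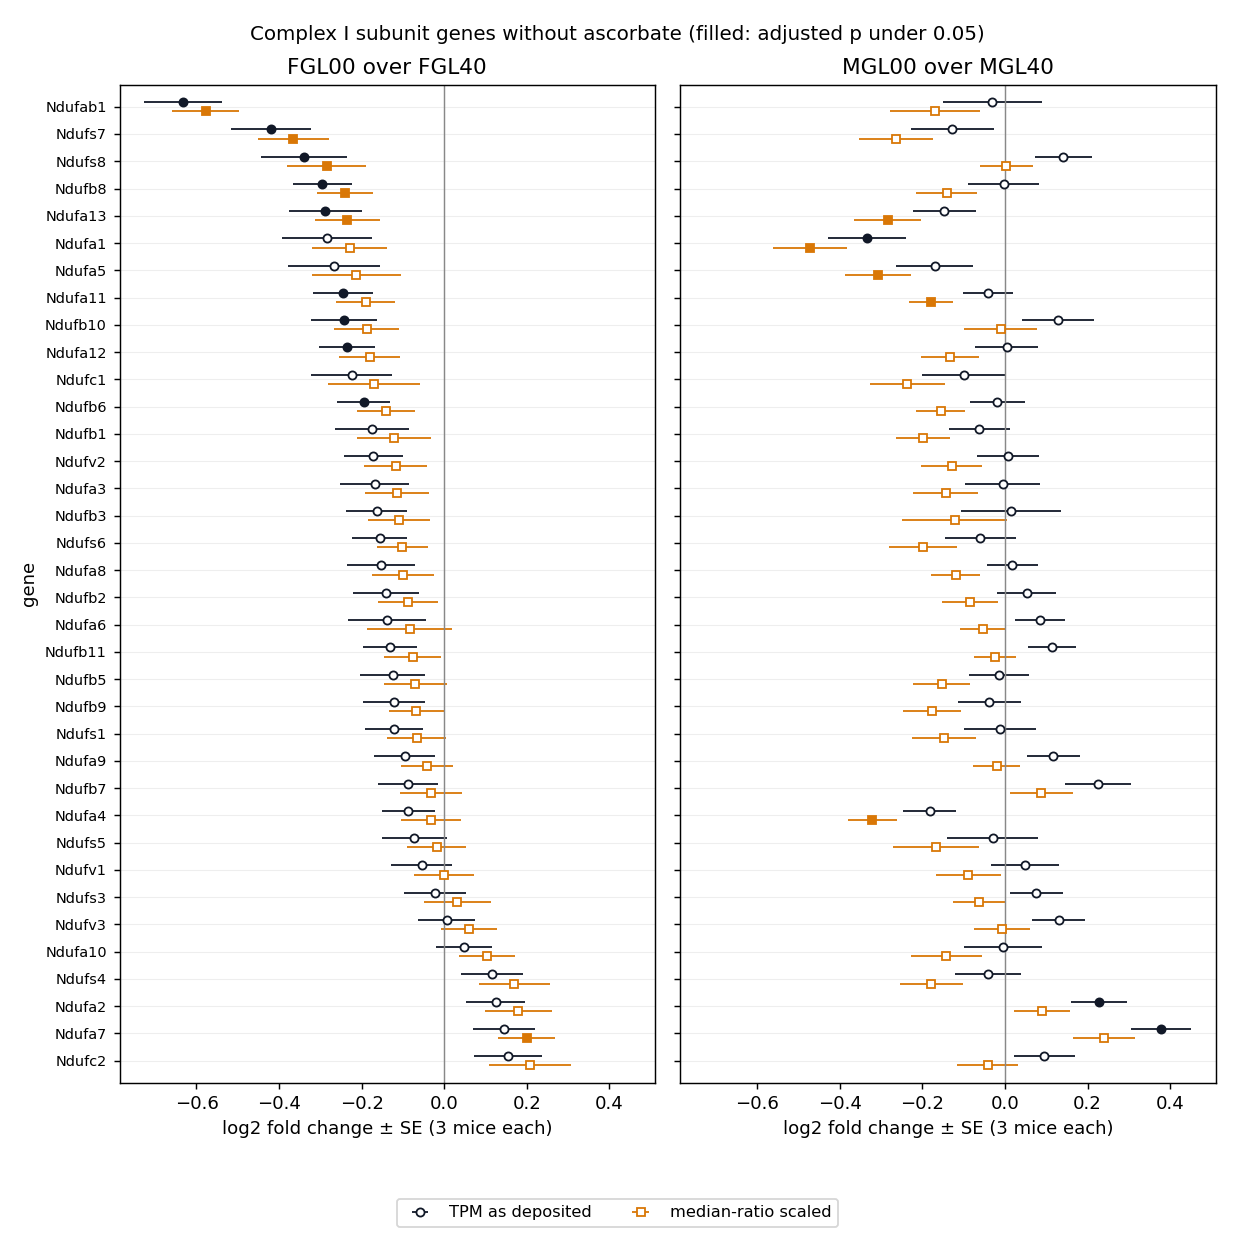
Log2 fold change with its SE of 36 members in FGL00 over FGL40 (left) and MGL00 over MGL40 (right), on TPM as deposited (black circles) and after median-ratio scaling (orange squares), filled where the adjusted p is under 0.05. Ndufab1 is at -0.63 and -0.58 in females under these scalings, whereas in males 2 members are filled above 0 and 1 below on TPM as deposited and 5 below 0 after scaling.

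Whether females and males differed in their answer to depletion was tested directly, as the log2 change of FGL00 over FGL40 minus that of MGL00 over MGL40. For 5 members this difference was called below 0 and for none above, against 11.3% of all genes below and 2.39% above. That count was close to the share of all genes, whose calls were also mostly below 0. The difference was -0.60 ± 0.15 for Ndufab1 (adjusted p = 0.00960) and -0.48 ± 0.12 for Ndufs8 (adjusted p = 0.00912). Ndufs8 was 111, 115 and 113 TPM in MGL00 mice, against 101, 102 and 105 TPM in MGL40 mice, higher in each MGL00 mouse, but it was not called in males (log2 change 0.14 ± 0.07, adjusted p = 0.201) and its change was 0.00 with median-ratio scaling. The other 3 were Ndufb10 (-0.37), Ndufb7 (-0.31) and Ndufb11 (-0.25), all of the distal membrane arm.

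These calls depended on the scaling. Without the Mup genes Ndufab1 and Ndufs8 were called, with differences of -0.51 (adjusted p = 0.0244) for Ndufab1 and -0.39 (adjusted p = 0.0336) for Ndufs8. With median-ratio scaling the values were -0.41 (adjusted p = 0.0506) for Ndufab1 and -0.29 (adjusted p = 0.0895) for Ndufs8, and Ndufa4 (0.29) and Ndufs4 (0.34) were called above 0. Of all genes, 7.37% were called below 0 without the Mup genes, and 5.45% above and 5.32% below 0 with median-ratio scaling. The median member difference was -0.16 on TPM as deposited and 0.03 with median-ratio scaling. The count was 2 without FGL00 mouse 2788, MGL00 mouse 2783 or 2787 or MGL40 mouse 2719, and 3 without FGL40 mouse 2694 or 2696 or MGL40 mouse 2691. In these fits 1390 to 1670 of all genes were called below 0, against 2005 with all mice.

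Over all treatments, 10 members were lower in females than in males and 1 was higher, against 7.41% of all genes that were lower and 36.8% that were higher (limma, 18 mice of each sex, treatment in the model). Ndufa4 had 514, 575 and 653 TPM at the lowest, median and highest in females, against 555, 644 and 745 TPM in males. The ranges overlapped, and the female mean was below the male mean in 6 of 6 treatments (log2 difference -0.16 ± 0.02, adjusted p = 4.05e-06). Further members lower in females were Ndufb3 (-0.19), Ndufv3 (-0.15), Ndufs5 (-0.15), Ndufb9 (-0.14), Ndufa10 (-0.14), Ndufb1 (-0.13), Ndufa3 (-0.12) and Ndufs4 (-0.11). Ndufv3 is an accessory N module subunit, Ndufb9 binds the acyl carrier protein, and mutations of human NDUFS4 and NDUFA10 cause Leigh syndrome.

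All 10 were called lower in females under all 3 scalings. Ndufc2 was the member called higher, with 80.0, 89.9 and 109.7 TPM at the lowest, median and highest in females, against 69.9, 83.6 and 101 TPM in males (0.12 ± 0.03, adjusted p = 0.00205), and its sign turned with median-ratio scaling (-0.01, adjusted p = 0.871). With that scaling 36 members were lower in females and none higher, against 20.2% of all genes that were lower and 20.0% that were higher, and without the Mup genes 24 were lower and none higher, against 11.6% and 27.4% of all genes. The ratios of mean TPM in females to those in males lay between 0.875 and 1.09.

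The genes of complex I assembly, whose proteins put the subunits together and are not part of the finished enzyme, were described beside the members. Of 18 assembly factors tested, 9 fell and none rose in FGL00 over FGL40, with a median log2 change of -0.36, against -0.02 over all genes and -0.15 over the members. Of all genes, 13.7% fell and 9.56% rose. The same 9 fell with median-ratio scaling, where 1 rose (Foxred1), and without the Mup genes, against 12.8% and 15.9% of all genes that fell under these scalings. The 4 most abundant of those that fell were Dmac2, Ecsit, Tmem70 and Acad9.

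Acad9, an acyl-CoA dehydrogenase relative that serves in assembly, was 20.8, 22.5 and 26.2 TPM in FGL00 mice, against 32.8, 37.6 and 40.0 TPM in FGL40 mice (log2 change -0.65 ± 0.14, adjusted p = 0.00442). Ecsit, its partner in an intermediate that builds the membrane arm, was 20.4, 22.9 and 24.4 TPM in FGL00 mice, against 34.1, 34.1 and 34.5 TPM in FGL40 mice (-0.58 ± 0.10, adjusted p = 9.64e-04). Neither gene overlapped between the groups. Tmem70 (-0.52), which also serves ATP synthase assembly, and Dmac2 (-0.40), which acts on the distal membrane arm, fell as well.

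In FGLR40 over FGL00, with the same FGL00 mice, 9 assembly factors rose and none fell, among them Dmac2 (0.42), Ecsit (0.69), Tmem70 (0.54) and Ndufaf1 (0.77), against 16.6% of all genes that rose. With median-ratio scaling 8 rose and 2 fell (Dmac1 and Ndufaf7), against 9.05% of all genes that rose and 9.11% that fell. In MGL00 over MGL40, Ndufaf7 and Tmem126b rose and Ndufaf4 fell (9.85% of all genes rose and 2.45% fell), while with median-ratio scaling 5 fell (Acad9, Ecsit, Ndufaf2, Ndufaf4 and Tmem70) and none rose (5.24% of all genes fell).

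Tmem126b, a membrane protein of the same intermediate as Acad9 and Ecsit, was 7.40, 7.53 and 7.58 TPM in FGL00 mice, against 11.2, 11.8 and 12.4 TPM in FGL40 mice. In males it was 14.0, 14.1 and 14.9 TPM in MGL00 mice, against 10.7, 11.4 and 12.7 TPM in MGL40 mice. The groups overlapped in neither sex, and the difference between the sexes in its log2 change was -0.88 ± 0.13 (adjusted p = 6.81e-05). The other assembly factors called in that test were Ndufaf8 (-0.48), Ndufaf1 (-0.73), Timmdc1 (-0.56) and Ndufaf5 (-1.07), and with median-ratio scaling 4 were called below 0 and 1 above. Of all genes, 11.3% were called below 0 in that test on TPM as deposited, and 5.32% below and 5.45% above 0 with median-ratio scaling.

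**Figure D5:**
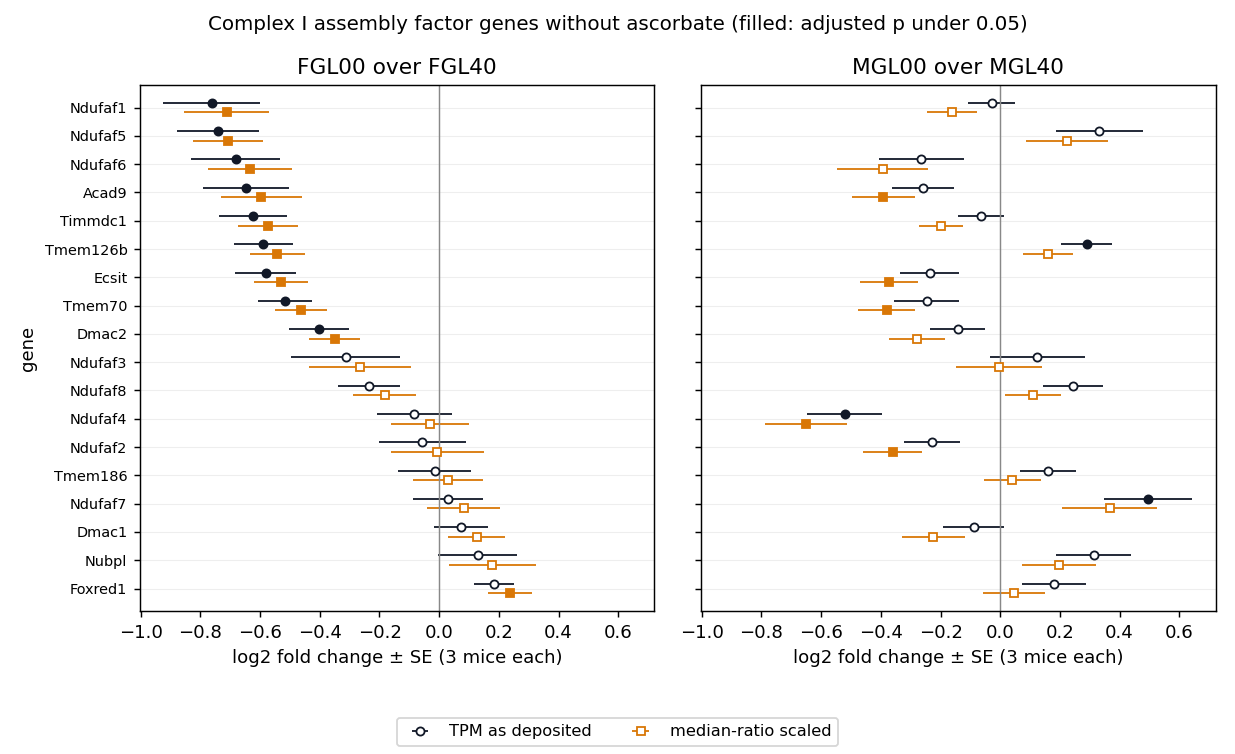
Log2 fold change with its SE of 18 complex I assembly factor genes in FGL00 over FGL40 (left) and MGL00 over MGL40 (right), on TPM as deposited (black circles) and after median-ratio scaling (orange squares), filled where the adjusted p is under 0.05. In females the same 9 genes are filled below 0 under both, and in males 2 are filled above and 1 below 0 on TPM as deposited and 5 below 0 after scaling.

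The mitochondrially encoded ND subunits, the membrane part of the core, gave calls in the other direction. Of the 7, mt-Nd6, mt-Nd5 and mt-Nd1 rose in FGL00 over FGL40 under all 3 scalings, and none fell, against 9.56% of all genes that rose on TPM as deposited, 12.3% with median-ratio scaling and 8.1% without the Mup genes. mt-Nd6 was 7364, 8539 and 9579 TPM in FGL00 mice, against 4581, 4622 and 5041 TPM in FGL40 mice (log2 change 0.83 ± 0.12, adjusted p = 2.92e-04). mt-Nd5 was 5122, 5936 and 6347 TPM in FGL00 mice, against 3530.3, 3647 and 3963 TPM in FGL40 mice (0.64 ± 0.10, adjusted p = 3.93e-04), and mt-Nd1 had 9185 TPM in FGL00 and 7431 TPM in FGL40 (0.31 ± 0.09, adjusted p = 0.0259). Neither mt-Nd5 nor mt-Nd6 overlapped between the groups.

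mt-Nd5 and mt-Nd6 are neighbours on opposite strands, the strand setting of the quantification is not given in the sources used here, and mt-Nd6 mRNA has little or no poly(A) tail, so that its level in poly(A)-selected libraries is uncertain. In FGLR40 over FGL00, mt-Nd5 (-0.43) and mt-Nd6 (-0.56) fell, against 5.3% of all genes. In MGL00 over MGL40 none of the 7 was called by limma under any of the 3 scalings, and mt-Nd6 had a log2 change of 0.31 ± 0.17 (adjusted p = 0.273).

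Complex III, which takes over the electrons that complex I puts on ubiquinone, had 2 of 9 subunits lower and none higher in FGL00 over FGL40, against 13.7% of all genes lower and 9.56% higher. Uqcrc2 had 125 ± 5.40 TPM in FGL00 and 149 ± 5.10 TPM in FGL40 (log2 change -0.25 ± 0.07), and Cyc1 had 145 ± 6.91 TPM in FGL00 and 178 ± 1.88 TPM in FGL40 (-0.30 ± 0.09), and with median-ratio scaling 1 (Uqcrc2) was lower, against 12.8% of all genes. In MGL00 over MGL40, Uqcr10 was lower (316 TPM in MGL00 and 379.5 TPM in MGL40, log2 change -0.27 ± 0.08), against 2.45% of all genes, and with median-ratio scaling 3 were lower, against 5.24% of all genes. Over all treatments 5 of the 9 were lower in females than in males and none higher, and all 9 were lower after median-ratio scaling, against 7.41% of all genes lower on TPM as deposited and 20.2% after that scaling.

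Of 12 regulators of respiratory genes, 1 was called in FGL00 over FGL40, and it was lower, against 13.7% of all genes that fell. This was Esrrg, an estrogen-related receptor, with 1.40 ± 0.449 TPM in FGL00 and 3.91 ± 0.919 TPM in FGL40 (log2 change -1.03 ± 0.20, adjusted p = 0.00203), which fell under all 3 scalings, with 1 other regulator (Pprc1) higher after median-ratio scaling (12.3% of all genes rose and 12.8% fell). In FGLR40 over FGL00, 6 rose and none fell, and with median-ratio scaling 2 rose (Esrrg and Tfb2m), against 16.6% of all genes that rose on TPM as deposited and 9.05% after that scaling. The most abundant of the 6 were Tfam (0.35), Esrra (0.52), Tfb2m (0.52) and Gabpa (0.37), factors of mitochondrial and respiratory gene transcription. None of the 12 was called by limma in MGL00 over MGL40 under any of the 3 scalings.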

How the data were processed

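Liver RNA of 36 mice was sequenced by the authors from poly(A)-selected directional libraries, trimmed with fastp 0.20.0 and quantified with kallisto 0.46.2 on the Ensembl 104 mouse transcriptome, and the authors deposited TPM for 36066 genes. The strand setting is not given in the sources used here. TPM keep no depth, so that no count test or counting interval was made.

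Mice were grouped by their labels. limma 3.58.1 (R 4.3.3, statmod 1.5.0, trend and robust) was fitted to log2(TPM + 1) of the 18 mice of a sex, with 1 mean per group, for genes above 0 TPM in at least 13 of 18 mice (26 of 36 for the fits of both sexes). Calls needed an adjusted p under 0.05, with no criterion on the fold. The fit of females was tested on simulated data with known changes in FGL00, and the other fits and steps were not. Figures and promoter searches used Python 3.11.15.

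Members and lists were chosen with earlier results of these data known. Named members are up to 10 called per comparison by size of change (with none called, the 3 smallest p values), the 3 most and 3 least abundant, core subunits, Ndufa4 and those with a printed promoter, and, of other lists, up to 4 of the most abundant called. Of the ND genes, mt-Nd1, mt-Nd5 and mt-Nd6 are named, and the others are only counted. Members and other genes called only under another scaling, Tmem126b, Ndufaf5 and Ndufs4 were named after their values were seen. The alternatives changed the scaling between mice, the Mup genes, the pseudocount (0.1), the filter (none, or TPM of at least 1 in 3 mice), the groups in the fit, the weights of mice, the criterion (a ratio above 2) and the mice (each left out). Comparisons of GL00 with GL01 were added after values had been seen. Promoters came from RefSeq (GRCm38.p6). Hepatic ascorbate was not used here. One member is counted but not reported here by name.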

Additional observations from a re-analysis of the deposited data

Results flagged for a closer look

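The log2 change of FGL00 over FGL40 and that of MGL00 over MGL40 differed by the interaction test (limma, adjusted p under 0.05) for 5 of 37 members, all below 0, against 11.3% of all genes called below 0 and 2.39% above. That count was close to the share of all genes, and its direction was that of most genes called. The differences, female change minus male change, were -0.60 for Ndufab1 (adjusted p = 0.00960), -0.48 for Ndufs8 (adjusted p = 0.00912), -0.37 for Ndufb10 (adjusted p = 0.0305), -0.31 for Ndufb7 (adjusted p = 0.0413) and -0.25 for Ndufb11 (adjusted p = 0.0373). Over 18 alternatives Ndufab1 ranged between -0.62 and -0.41 and Ndufs8 between -0.51 and -0.29, and each was called in 17 of them, the exception being median-ratio scaling. Ndufb10, Ndufb11 and Ndufb7 were called in 10, 9 and 6 of the 18.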

How the results depend on the processing

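Counts of members called moved by more than 1.5 times as follows. With median-ratio scaling they were 6 in FGL00 over FGL40, 0 in FGL01 over FGL40, 4 in FGL00 over FWT00, 5 in FGLR40 over FGL00, 5 in MGL00 over MGL40, 0 in MGL01 over MGL40, 4 in MGLR40 over MGL00, 36 in females over males, 2 in the test of the sex difference in change, 1 in FGL00 over FGL01 and 16 in MGL00 over MGL01, and the 2 of the test of the sex difference were above 0 where the 5 on TPM as deposited had been below. Without the Mup genes they were 2 in FGL01 over FGL40, 0 in MGL01 over MGL40, 4 in MGLR40 over MGL00, 24 in females over males, 2 in the test of the sex difference in change and 5 in MGL00 over MGL01. Of all genes, 0.952% rose in MGL01 over MGL40 and 2.05% fell in MGL00 over MGL01 without the Mup genes. With median-ratio scaling, 7.51% rose in FGL01 over FGL40 and 1.33% in MGL01 over MGL40. With array weights the member counts were 18 in FGL01 over FGL40, 1 in FGLR40 over FGL40, 7 in MGL01 over MGL40, 4 in MGL00 over MWT00, 5 in MGLR40 over MGL00, 29 in FGL00 over FGL01 and 13 in MGL00 over MGL01. Of all genes, the weights gave 4404 higher in FGL01 over FGL40 (2584 in the main fit). They gave 1222 higher in FGLR40 over FGL40 (297) and 565 in MGL01 over MGL40 (347). Lower were 2771 in FGL00 over FGL01 (648) and 848 in MGL00 over MGL01 (307). In MGL00 over MWT00 1489 were higher and 1033 lower (1186 and 714). In MGLR40 over MGL00 896 were higher and 1739 lower (526 and 1087). With TPM of at least 1 in 3 mice as the filter the member counts were 4 in MGL01 over MGL40 and 4 in MGL00 over MGL01, and with no filter 0 in MGL01 over MGL40 and 1 in MGL00 over MGL01. Of 12785 genes, 429 rose in MGL01 over MGL40 and 343 fell in MGL00 over MGL01 with the first of these filters. With no filter these numbers were 197 and 192 of 24517 genes. With only the groups compared in the fit the member counts were 1 in FGL01 over FGL40, 0 in MGL01 over MGL40, 0 in FGL00 over FGL01 and 0 in MGL00 over MGL01. Of all genes, 1458 rose in FGL01 over FGL40 and 28 in MGL01 over MGL40 in such fits. Those that fell were 2 in FGL00 over FGL01 and 28 in MGL00 over MGL01. A ratio of mean TPM above 2 as a further criterion left 0 members in each of the 11 comparisons of groups or sexes that had given a call. Ndufc2 in females over males turned to -0.00966 with median-ratio scaling. Why these counts moved was not tested.

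Summed member values moved by more than their SD to 5297 in FGL01, 5398 in FGL05, 5342 in FGL40, 5225 in FGLR40, 5251 in FWT00, 5992 in MGL05, 6121 in MGL40 and 6157 in MGLR40 with median-ratio scaling, and to 5634 in FGL40, 5755 in FWT00, 6155 in MGL05, 6282 in MGL40, 6260.2 in MGLR40 and 6065 in MWT00 without the Mup genes. Leaving out each mouse gave 3 to 6 members in FGL00 over FGL40, 1 to 7 members in FGL01 over FGL40, 7 to 10 members in FGL00 over FWT00, 8 to 16 members in FGLR40 over FGL00, 1 to 2 members in MGL00 over MGL40, 0 to 3 members in MGL01 over MGL40, 1 to 2 members in MGL00 over MWT00, 0 to 1 members in MGLR40 over MGL00, 11 to 12 members in females over males, 2 to 5 members in the test of the sex difference in change, 4 to 28 members in FGL00 over FGL01 and 0 to 7 members in MGL00 over MGL01, and 0 in the other 6 comparisons. The numbers of all genes called with a mouse left out are given with the comparisons above, except for females over males. log2(TPM + 0.1) kept each count of members within 1.5 times. The 91 changes of single members followed include 3 from each of the 6 comparisons without a call, which had no call to lose. Of the changes called, 45 lost their call with median-ratio scaling, and 1 more turned and was not called. Without the Mup genes 14 lost it. No paired analysis was possible because animal numbers are not shared between groups. Depth is unknown from TPM, and 3 mice a group limit the precision.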

Other observations

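Ndufb4 fell outside the members because its row carries the joint symbol Ndufb4;Ndufb4c. That row had 24.4 ± 1.58 TPM in FGL00 and 25.8 ± 4.44 TPM in FGL40 (SD, n = 3 each) and was not called there (limma, log2 change -0.07, adjusted p = 0.787). A separate row named Ndufb4c, a near copy, had 146 to 165 TPM in FGL00 and 170.4 to 183 TPM in FGL40 (log2 change -0.18, adjusted p = 0.172). Reads of such copies can be split between the rows, so that both levels are uncertain. Ndufa4l2, a relative of Ndufa4 that the naming rule also leaves out, had a log2 change of 0.05 in FGL00 over FGL40 (adjusted p = 0.911).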
